A study of Mus musculus with 12 samples.

Results

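The purinergic P2X and P2Y receptors, the cell surface receptors for ATP and other extracellular nucleotides, were followed in mouse dorsal root ganglia after nerve injury. The 10 genes were taken by symbol from the deposited expression files and all 10 were found among the 24060 genes named there: P2rx2, P2rx3, P2rx4, P2rx5, P2rx6, P2rx7, P2ry1, P2ry2, P2ry12 and P2ry14. Ganglia were taken 1, 3 and 7 days after spared nerve injury or from naive mice, which gave 4 groups of 3 RNA-seq libraries. Spared nerve injury is a model of neuropathic pain in which the common peroneal and tibial nerves are tied and cut and the sural nerve stays whole, so a ganglion holds both cut and uncut neurons. All mice were adult C57BL/6J males aged 9 to 10 weeks, and no genetic change or drug is named for any group. A sham-operated group was not analysed here, and every difference from naive covers anaesthesia, surgery and nerve damage together. Whether each library stands for a single animal or several is not in the labels, and p-values therefore speak only of the spread among these libraries.

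P2X receptors are ATP-gated cation channels built from 3 subunits, and P2Y receptors are G protein-coupled receptors that answer to ATP, ADP, UTP or nucleotide sugars depending on the subtype. In sensory ganglia the homomeric P2X3 channel and the P2X2/3 heteromer sit on nociceptors, mostly those without peptides, and turn ATP from damaged tissue into firing. Satellite glia, which wrap each neuron, and macrophages carry other members such as P2X7, P2X4, P2Y12 and P2Y14, through which they respond to nucleotides that neurons release.

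Each value below is RPKM, the number of reads scaled by gene length and library size. Levels set against each other between genes therefore depend on the gene lengths behind the values. Library sizes lay between 13627000 and 17953000 reads, and replicates of a group had a Pearson's r of 0.953 to 0.976 across genes. Atf3, a transcription factor switched on in cut sensory neurons, stood at 57.4 to 77.9 RPKM at day 1, 84.1 to 104 RPKM at day 3 and 44.1 to 70.1 RPKM at day 7, against 2.33 to 2.38 RPKM in naive libraries. Transcripts of skeletal muscle stood out in 2 libraries, with the myosin gene Myh4 at 10.3 RPKM in day 7 replicate 2 and 9.75 RPKM in naive replicate 1 and nowhere else above 2.59 RPKM. Of the pan-neuronal markers 10 of 10 passed the expression filter, as did 8 of 8 satellite glia and 10 of 10 myelinating Schwann cell markers. Passing it shows that these genes were detected and not what share of the RNA came from each cell type. In a bulk sample, fewer cells of a type and less RNA per cell cannot be told apart.

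Promoter sequences were looked up for the receptor that fell after injury and, beside it, for a receptor of glia and macrophages. The RefSeq promoter table for GRCm38.p6, the assembly that mm10 is built on, held 12 windows for 7 of the 10 genes, each from 250 bases before to 50 bases after an annotated start. P2rx2, P2rx3 and P2rx5 were not matched. Both strands were searched for TGACGTCA, the element bound by ATF and CREB factors, for TGANTCA, the AP-1 element, and for TGTGGT, a core of RUNX elements, which do not overlap each other in these windows. The P2ry1 window lies at chr3:61002535-61002834 on the plus strand, and the window of the first P2rx7 start at chr5:122643677-122643976 on the plus strand. Capitals mark the AP-1 element.
P2ry1: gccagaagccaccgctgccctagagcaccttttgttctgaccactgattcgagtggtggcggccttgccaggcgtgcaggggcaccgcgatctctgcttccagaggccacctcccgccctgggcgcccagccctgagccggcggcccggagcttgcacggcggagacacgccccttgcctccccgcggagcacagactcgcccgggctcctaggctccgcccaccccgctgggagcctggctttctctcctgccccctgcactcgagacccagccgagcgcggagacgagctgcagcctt
P2rx7: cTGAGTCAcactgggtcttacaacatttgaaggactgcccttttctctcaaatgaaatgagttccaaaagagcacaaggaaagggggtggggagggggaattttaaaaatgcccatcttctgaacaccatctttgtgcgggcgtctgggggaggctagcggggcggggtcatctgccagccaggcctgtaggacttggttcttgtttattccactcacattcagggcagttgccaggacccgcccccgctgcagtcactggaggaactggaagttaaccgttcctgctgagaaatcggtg
The P2ry1 window, with a GC content of 70.7%, held none of the 3 elements. Of all 32851 windows in the table, 1.79% held TGACGTCA, 7.81% held TGANTCA and 16.8% held TGTGGT. The P2rx7 window held TGANTCA 249 bases before the start, and P2ry14 held it in 2 of its 4 windows, 202 and 144 bases before their starts. No other window of the matched genes held any of the 3. A match is a description of letters, and no match says only that these letters are not in the window.

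In naive ganglia P2ry1 and P2rx3 stood far above the rest. P2ry1, a Gq-coupled receptor for ADP that is carried by sensory neurons, averaged 33.5 ± 1.25 RPKM and P2rx3, the P2X3 subunit, 33.4 ± 3.19 RPKM (SD, n = 3), and their ranges overlapped. P2rx7, the channel of macrophages and glia that needs high ATP, followed at 9.31 ± 0.506 RPKM and overlapped with neither P2rx3 above it nor P2rx4 below it. P2rx4, a channel of macrophages and microglia with some neuronal expression, stood at 6.81 ± 0.533 RPKM. P2rx6, a neuronal subunit that opens poorly on its own, stood at 5.30 ± 1.45 RPKM and P2ry14, the receptor for UDP-glucose, at 5.19 ± 0.988 RPKM, so that each overlapped with its neighbour in this order. P2ry2, the receptor for ATP and UTP, stood at 3.15 ± 0.886 RPKM and P2ry12, the ADP receptor of microglia and platelets, at 2.64 ± 0.282 RPKM, and these 2 also overlapped. P2rx5, a subunit of larger sensory neurons, averaged 1.77 ± 0.485 RPKM. P2rx2, the partner of P2X3 in the heteromer, was the lowest of the 10 at 0.744 ± 0.0404 RPKM, so its level was 45.1 ± 6.49 times below that of P2rx3 in naive libraries.

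After injury the receptors whose change passed the test were 2 that neurons carry, P2ry1 and P2rx3, and they moved in opposite directions. P2ry1 fell at days 1 and 3, and P2rx3 rose at day 3. At day 1, 1 of the 9 receptors tested passed and was lower, where 3.43% of all 14195 genes tested passed and 0.831% passed as lower. At day 3, 2 of 9 passed, 1 higher and 1 lower, where 5.67% of all genes passed, 3.72% of all as higher and 1.95% of all as lower. At day 7, 0 of 9 passed in limma, where 2.92% of all genes passed. At day 7, 3 of 9 receptors had an unadjusted p under 0.05, beside 12.9% of all genes, and voom in limma on the recovered reads called 2 of 9. The median log2 fold change of the 9 receptors was -0.063 at day 1, -0.11 at day 3 and -0.052 at day 7, beside -0.0055, 0.0016 and 0.0023 over all genes. Ranges did not overlap with naive for 3 of 9 receptors at day 1, 3 at day 3 and 5 at day 7, beside 22.7%, 26.5% and 18.1% of all genes. All ranges are of RPKM before the further scaling used in the test. P2rx2 reached 1 RPKM in 2 libraries and so was not in this test. Tests were made with limma on log2(RPKM + 0.5), with Benjamini-Hochberg adjustment over all 14195 genes, and the 3 comparisons with naive share the same 3 naive libraries. Without the 2 libraries richest in muscle transcripts, the counts were 0 of 9 at day 1 and 1 of 9 at day 3, where the remaining call was P2ry1. The fold changes were no smaller in this fit of fewer libraries: P2ry1 stood at a log2 of -0.74 at day 1 (adjusted p = 0.106), against -0.70 with all 12 libraries, and P2rx3 at 0.49 at day 3 in both (adjusted p = 0.0811 without the pair).

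**Figure D1:**
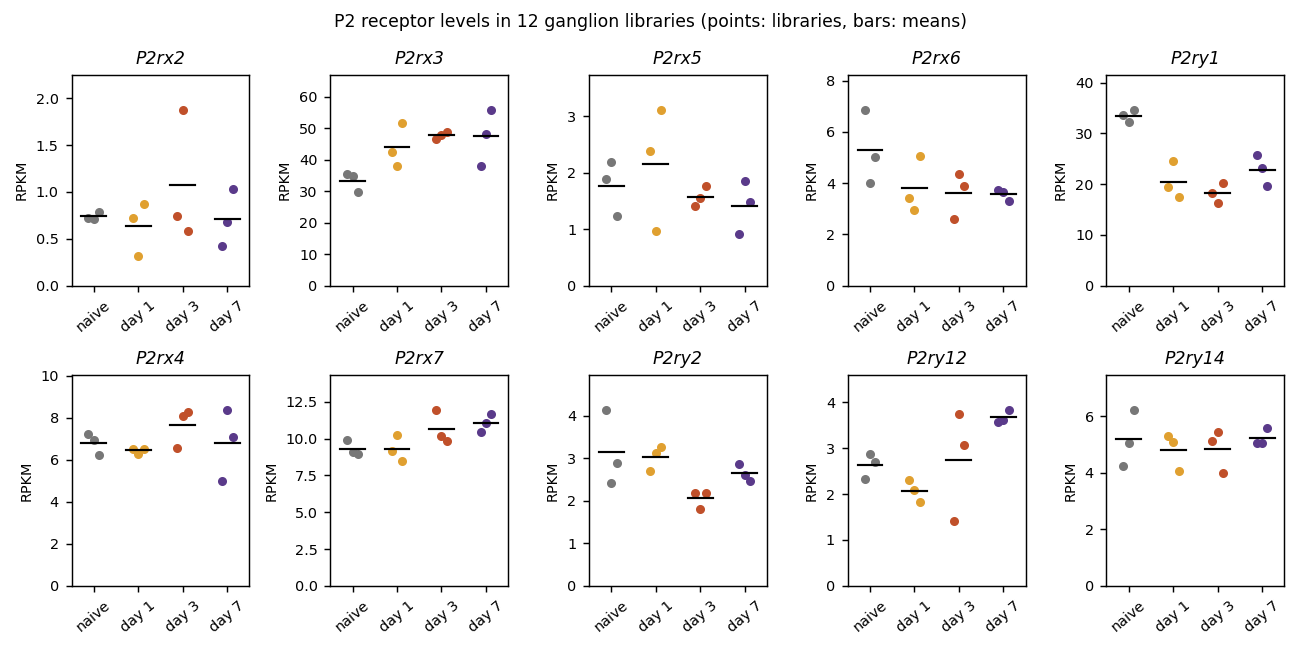
Level of each receptor in RPKM (vertical axes, each from 0 with its own scale) in naive ganglia and 1, 3 and 7 days after spared nerve injury; points are the 12 libraries and bars the mean of 3. P2rx3 is at 38.0 to 55.9 RPKM in the 9 injured libraries, above 29.7 to 35.5 RPKM in naive, and P2ry1 at 16.4 to 25.7 RPKM, below 32.2 to 34.7 RPKM in naive.

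P2rx3 encodes the subunit that makes nociceptors fire in response to ATP. It lies on chromosome 2 from 84998583 to 85037462 on the minus strand in mm10 and is protein-coding, as are the other 9 genes in GENCODE M21. P2rx3 had 42.6, 38.0 and 51.6 RPKM at day 1, 46.6, 48.0 and 48.7 RPKM at day 3 and 38.1, 48.2 and 55.9 RPKM at day 7, against 35.5, 34.9 and 29.7 RPKM in naive replicates 1, 2 and 3. All 9 injured libraries lay above all 3 naive libraries, a pattern of 4.14% of all genes tested. The day 3 libraries were close together, while days 1 and 7 each had 1 library within 3 RPKM of the highest naive library. These values rest on 1890 to 3880 reads a library, and in GENCODE M21 51 exon bases are shared with Ssrp1 on the other strand. The gene models behind the values differ from GENCODE M21. The deposited values imply a length of 4190 bases for P2rx3, 1993 bases for P2rx4 and 2571 bases for P2ry14. For these 3 genes GENCODE M21 has 2789, 7025 and 11059 exon bases. Shared exon bases are therefore those of GENCODE M21 and may not be those of the authors' counting. The order of the receptors and the ratios between them rest on the implied lengths.

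P2rx3 rose to 47.8 ± 1.06 RPKM at day 3, against 33.4 ± 3.19 RPKM in naive ganglia (SD, n = 3 each), a fold of 1.40 on the scale of RPKM + 0.5 (log2 fold change 0.49, SE 0.12, limma adjusted p = 0.026). At day 1 the level was 44.1 ± 6.92 RPKM (log2 fold change 0.40, adjusted p = 0.0964) and at day 7 it was 47.4 ± 8.92 RPKM (log2 fold change 0.46, adjusted p = 0.0531), and neither passed. The difference over all 4 groups did not pass either (adjusted p = 0.0628). The day 3 call did not hold when naive replicate 1 (adjusted p = 0.0644) or naive replicate 3 (0.142) was left out, nor without any of the 3 day 3 libraries (0.0877, 0.0787 and 0.0836 without replicates 1, 2 and 3). It was also lost without scaling beyond RPKM (0.0607). P2rx3 passed at day 7 without day 7 replicate 1 (0.0226) or day 1 replicate 3 (0.0459), and over all 4 groups without day 7 replicate 1 (0.0254). The log2 fold change at day 3 lay between 0.41 and 0.54 over all 24 other settings.

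P2ry1 moved the other way. It is a gene of chromosome 3, from 61002795 to 61008982 on the plus strand, and its promoter window is the first sequence above. P2ry1 had 19.4, 24.7 and 17.5 RPKM at day 1, 18.3, 16.4 and 20.3 RPKM at day 3 and 25.7, 23.2 and 19.6 RPKM at day 7, against 33.6, 32.2 and 34.7 RPKM in naive replicates 1, 2 and 3. All 9 injured libraries lay below all 3 naive libraries, a pattern of 3.24% of all genes tested, and the 3 injured groups overlapped among themselves. The values rest on 1009 to 2107 reads a library. In GENCODE M21 the antisense gene Gm37035 covers 992 of the 4291 exon bases of P2ry1, and since strandedness is not given in the sources used here, reads from the 2 strands cannot be told apart.

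P2ry1 fell to 20.5 ± 3.72 RPKM at day 1, against 33.5 ± 1.25 RPKM in naive ganglia (SD, n = 3 each), a fold of 0.615 on the scale of RPKM + 0.5 (log2 fold change -0.70, SE 0.17, limma adjusted p = 0.0385). At day 3 it fell to 18.3 ± 1.98 RPKM, against the same naive level, a fold of 0.541 (log2 fold change -0.89, SE 0.17, adjusted p = 0.00653). At day 7 it stood at 22.8 ± 3.08 RPKM (log2 fold change -0.58, adjusted p = 0.104), which did not pass. The difference between days 7 and 3 was 0.31 on the log2 scale (adjusted p = 0.947), so no return towards naive was detectable with 3 libraries a group. The difference over all 4 groups passed (adjusted p = 0.0268), where 4.78% of all genes did, and P2ry1 was the only 1 of the 9 receptors to pass it. The day 3 call held in all 24 other settings, with adjusted p from 0.000212 to 0.0412.

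The day 1 call of P2ry1 held in 14 of the 24 other settings. It did not hold when naive replicate 1, 2 or 3 was left out (adjusted p = 0.0818, 0.112 and 0.143), nor without day 1 replicate 1 (0.145), day 1 replicate 3 (0.151), day 3 replicate 3 (0.0538) or day 7 replicate 2 (0.0511), nor with no expression filter (0.0804). The call over all 4 groups was lost without any naive library (0.0775, 0.106 and 0.135 without replicates 1, 2 and 3), without day 1 replicate 1 (0.0571) or without day 3 replicate 2 (0.0697). Without day 7 replicate 1 the day 7 difference passed (0.0221).

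**Figure D2:**
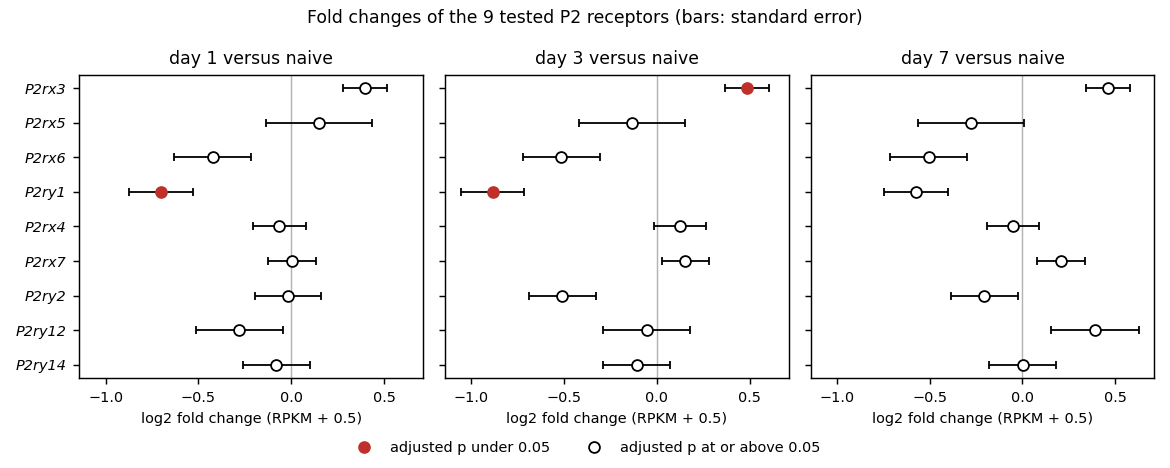
Log2 fold change of RPKM + 0.5 against naive (horizontal axes) for the 9 receptors tested at days 1, 3 and 7; bars are 1 standard error and filled points have a limma adjusted p under 0.05. Filled are P2ry1 at day 1 (-0.70) and at day 3 (-0.89) and P2rx3 at day 3 (0.49).

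The balance between the 2 most abundant receptors differed between injured and naive libraries, while their joint share of the receptor total lay in a narrow range. The ratio of P2rx3 to P2ry1, chosen after the values of both had been seen and therefore given without a test, was 2.20, 1.54 and 2.95 at day 1, 2.55, 2.93 and 2.40 at day 3 and 1.48, 2.07 and 2.85 at day 7, against 1.06, 1.08 and 0.857 in naive replicates 1, 2 and 3. Every injured library lay above every naive library, which follows from the separation of both genes given above and is no further result. P2rx3 made up 45.3 ± 4.95% of the summed level of the 10 receptors at day 1, 47.6 ± 0.420% at day 3 and 44.7 ± 5.08% at day 7, against 32.8 ± 2.34% in naive ganglia (SD, n = 3 each). P2ry1 made up 21.3 ± 4.66% at day 1, 18.3 ± 1.90% at day 3 and 21.9 ± 4.68% at day 7, against 32.9 ± 1.99% in naive ganglia. Together they held between 63.5% and 67.5% of the sum in each of the 12 libraries. The sum itself was 96.9 ± 4.76 RPKM at day 1, 100.3 ± 3.01 RPKM at day 3 and 105 ± 8.46 RPKM at day 7, against 102 ± 4.18 RPKM in naive ganglia, and the ranges of all groups overlapped.

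**Figure D3:**
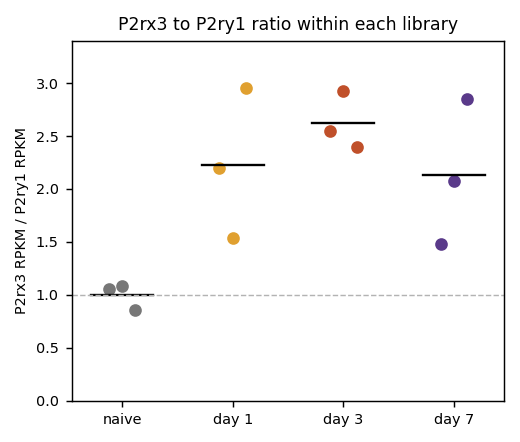
Ratio of P2rx3 RPKM to P2ry1 RPKM within each library (vertical axis, linear from 0) in naive ganglia and at days 1, 3 and 7; points are libraries, bars means, and the dashed line marks equal levels. Naive libraries lie at 0.857 to 1.08 and injured libraries at 1.48 to 2.95.

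The other neuronal channel subunits were low. P2rx6 had 3.42, 2.95 and 5.06 RPKM at day 1, 2.61, 4.37 and 3.90 RPKM at day 3 and 3.75, 3.64 and 3.32 RPKM at day 7, against 6.87, 4.01 and 5.03 RPKM in naive ganglia. Day 7 lay below naive without overlap, and days 1 and 3 overlapped with it. The log2 fold changes were -0.42, -0.51 and -0.51 at days 1, 3 and 7, and none passed (limma adjusted p = 0.367, 0.198 and 0.299). P2rx6 shares 554 of its 3995 exon bases with Slc7a4 on the other strand, which stood at 1.02 RPKM in naive ganglia.

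P2rx5 ranged from 0.921 to 3.12 RPKM in injured libraries and from 1.24 to 2.19 RPKM in naive libraries, on 32 to 128 reads. The replicates of day 1 alone spanned most of this range, with 3.12 RPKM in replicate 3 and 0.959 RPKM in replicate 2. The log2 fold changes of 0.15, -0.13 and -0.28 at days 1, 3 and 7 were each smaller than their standard error of 0.29.

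P2rx2 had 0.719, 0.321 and 0.871 RPKM at day 1, 0.748, 1.88 and 0.583 RPKM at day 3 and 0.420, 0.678 and 1.03 RPKM at day 7, against 0.727, 0.714 and 0.790 RPKM in naive ganglia. It rests on 9 to 57 reads a library. The highest library, day 3 replicate 2, held 57 reads, with an exact Poisson 95% interval of 43.2 to 73.9 that covers counting error only. The lowest, day 1 replicate 2, held 9 reads, with an interval of 4.12 to 17.1. In the fit without an expression filter P2rx2 had log2 fold changes of -0.16, 0.22 and -0.10 at days 1, 3 and 7, with an adjusted p of 0.811 or more. The level of P2rx3 was 78.9 ± 34.0 times that of P2rx2 at day 1, 57.1 ± 29.3 times at day 3 and 72.0 ± 18.4 times at day 7, against 45.1 ± 6.49 times in naive ganglia (SD, n = 3 each).

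P2ry2, which couples to Gq and is found on sensory neurons and on glia, had 2.70, 3.13 and 3.27 RPKM at day 1, 2.18, 1.81 and 2.20 RPKM at day 3 and 2.87, 2.62 and 2.47 RPKM at day 7, against 4.14, 2.42 and 2.90 RPKM in naive ganglia. The 3 day 3 libraries lay below every library of naive, day 1 and day 7. At day 3 the log2 fold change was -0.51 against naive (SE 0.18, limma adjusted p = 0.131) and -0.49 against day 1 (adjusted p = 0.359), and neither passed. Between days 3 and 1, 0 of 9 receptors passed in limma, where 0.507% of all genes did, and 1 of 9 had an unadjusted p under 0.05, beside 9.42% of all genes. Between days 7 and 1, 0 of 9 passed, where 0.972% of all genes did, and 1 of 9 had an unadjusted p under 0.05, beside 10.4%. Between days 7 and 3, 0 of 9 receptors and 0.0% of all genes passed in limma, and at an unadjusted p under 0.05 these were 0 of 9 receptors and 5.04% of genes.

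For the receptors of glia and macrophages no difference passed on any day, which among so few genes is near the 3.43%, 5.67% and 2.92% of all genes that passed at days 1, 3 and 7. P2rx7, whose activation lets macrophages release interleukin-1 beta, had 9.16, 10.3 and 8.51 RPKM at day 1, 11.9, 10.2 and 9.87 RPKM at day 3 and 10.4, 11.1 and 11.6 RPKM at day 7, against 9.89, 9.09 and 8.96 RPKM in naive ganglia. Day 7 lay above naive without overlap. The log2 fold changes were 0.0037, 0.15 and 0.21 at days 1, 3 and 7, each with a standard error of 0.13 and an adjusted p of 0.565 or more in limma. P2rx7 rested on 750 to 1077 reads a library and differed by 1.40 times between its lowest and highest libraries, the smallest such fold of the 10. It hosts the microRNA gene Mir8115 on the same strand, which shares 119 exon bases with it.

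P2rx4, which in microglia is known for its part in pain after nerve injury, had 6.52, 6.29 and 6.54 RPKM at day 1, 6.57, 8.09 and 8.26 RPKM at day 3 and 4.97, 8.37 and 7.07 RPKM at day 7, against 7.25, 6.97 and 6.21 RPKM in naive ganglia. Every injured group overlapped with naive, and day 7 held both the lowest and the highest library of the 12. The log2 fold changes were -0.063, 0.12 and -0.052 at days 1, 3 and 7, each smaller than its standard error of 0.14. P2rx4 and P2rx7 are neighbours on chromosome 5, P2rx7 from 122643911 to 122691432 and P2rx4 from 122707544 to 122729738, both on the plus strand. The level of P2rx7 was 1.45 ± 0.168 times that of P2rx4 at day 1, 1.42 ± 0.344 times at day 3 and 1.69 ± 0.390 times at day 7, against 1.37 ± 0.0688 times in naive ganglia (SD, n = 3 each). This ratio overlapped with naive on every day and was not tested.

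P2ry12, in the nervous system best known as the receptor that draws microglial processes towards ADP and also described on satellite glia, had 2.31, 2.08 and 1.83 RPKM at day 1, 1.41, 3.73 and 3.07 RPKM at day 3 and 3.58, 3.61 and 3.83 RPKM at day 7, against 2.33, 2.88 and 2.71 RPKM in naive ganglia. In RPKM, day 1 lay below naive and day 7 above it, both without overlap. At day 1 the gap was narrow, between 2.31 RPKM in day 1 replicate 1 and 2.33 RPKM in naive replicate 1. The test divided these 2 libraries by scaling factors of 0.968 and 1.05, and on that scale the day 1 and naive ranges overlapped. Day 3 held the lowest of the 12 libraries, while its replicates 2 and 3 lay above every naive one. None of this passed the test: the log2 fold changes against naive were -0.28, -0.055 and 0.39 at days 1, 3 and 7 (limma adjusted p = 0.664, 0.937 and 0.555). The difference between days 7 and 1 was 0.67 (SE 0.24, adjusted p = 0.284). P2ry12 rests on 53 to 149 reads a library.

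P2ry14, next to P2ry12 on chromosome 3 and described on satellite glia in mouse ganglia, had 5.32, 5.09 and 4.07 RPKM at day 1, 5.12, 5.46 and 4.00 RPKM at day 3 and 5.06, 5.06 and 5.59 RPKM at day 7, against 4.26, 5.07 and 6.23 RPKM in naive ganglia. All groups overlapped, and the log2 fold changes were -0.081, -0.11 and 0.0016 at days 1, 3 and 7. Both genes lie on the minus strand within Med12l, which runs on the plus strand and shares 9 exon bases with P2ry12 and 0 with P2ry14. The level of P2ry14 was 2.32 ± 0.114 times that of P2ry12 at day 1, 2.13 ± 1.29 times at day 3 and 1.43 ± 0.0304 times at day 7, against 1.96 ± 0.294 times in naive ganglia (SD, n = 3 each). Days 1 and 3 overlapped with naive, and the ratio was not tested.

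Markers of macrophages rose at days 3 and 7. Of 20 listed markers, 16 were tested, of which 0 passed at day 1 in limma (1 at an unadjusted p under 0.05, 0 with voom), 6 were higher at day 3 and 7 were higher at day 7, with median log2 fold changes of 0.059, 0.85 and 1.05. Beside these, 3.43%, 5.67% and 2.92% of all genes tested passed at days 1, 3 and 7, 3.72% as higher at day 3. The medians over all genes were -0.0055, 0.0016 and 0.0023. Ctss, the lysosomal protease cathepsin S, rose to 9.23 ± 2.01 RPKM at day 3 and 15.6 ± 5.56 RPKM at day 7, against 3.49 ± 0.497 RPKM in naive ganglia (SD, n = 3 each; limma adjusted p = 0.00175 and 6.77e-05). Mrc1, the mannose receptor, rose to 13.7 ± 1.58 RPKM at day 3 and 12.4 ± 1.56 RPKM at day 7, against 5.11 ± 1.38 RPKM in naive ganglia (adjusted p = 0.000243 and 0.000853). The calls of Ctss and Mrc1 held with any single library left out. The summed level of the 19 markers found in the files was 74.1 to 80.8 RPKM at day 1, 107 to 159 RPKM at day 3 and 112 to 195 RPKM at day 7, against 73.2 to 98.2 RPKM in naive libraries. C1qc, a chain of the complement component C1q, rose to 3.06 ± 1.35 RPKM at day 3, against 0.861 ± 0.581 RPKM in naive ganglia (adjusted p = 0.0126). C1qc no longer passed once naive replicate 2 or 3 or day 3 replicate 2 was left out (adjusted p up to 0.0691). C1qb, another C1q chain, averaged 4.84 ± 1.86 RPKM at day 3 and 6.36 ± 2.50 RPKM at day 7, against 1.89 ± 0.75 RPKM in naive ganglia. The 3 markers found in the files that stayed below the expression filter were C1qa, the remaining C1q chain, which averaged 0 RPKM in naive ganglia, and Tmem119 and Trem2. What part the macrophage markers have in the values of P2rx4, P2rx7 and P2ry12 was not tested. The count at day 3 was 3 without naive replicate 3 or without day 3 replicate 2, and the count at day 7 was 4 without the 2 libraries richest in muscle transcripts.

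Of the 8 satellite glia markers, 1 was higher at days 1 and 3 and 0 at day 7 in limma (1 at an unadjusted p under 0.05, 0 with voom), with medians of -0.016, -0.034 and -0.061. Among all genes tested, 3.43%, 5.67% and 2.92% passed at days 1, 3 and 7, and 12.9% had an unadjusted p under 0.05 at day 7. The marker that passed was Glul, glutamine synthetase, at 27.1 ± 5.94 RPKM at day 1 and 29.8 ± 2.60 RPKM at day 3, against 17.0 ± 2.94 RPKM in naive ganglia (SD, n = 3 each). Its day 1 call (adjusted p = 0.0388) was lost in 9 of 12 fits that each left out 1 library, with an adjusted p of up to 0.195, and its day 3 call without naive replicate 3 (0.0655). The 9 were the fits without any of the naive or day 3 libraries, day 1 replicates 1 and 3, and day 7 replicate 3. The summed level of the 8 was 213 to 391 RPKM at day 1, 287 to 412 RPKM at day 3 and 223 to 457 RPKM at day 7, against 299 to 453 RPKM in naive libraries, and all groups overlapped.

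Markers of non-peptidergic nociceptors, the neurons in which P2X3 is best known, fell in part at days 1 and 3. Of the 10 markers, all tested, 4 were lower at day 1, 6 at day 3 and 0 at day 7 in limma (4 at an unadjusted p under 0.05, 0 with voom), and 0 were higher on any day, with medians of -0.42, -0.61 and -0.29. Of all genes tested, 0.831% passed as lower at day 1 and 1.95% at day 3, and 2.92% passed in either direction at day 7. At an unadjusted p under 0.05 the share of all genes at day 7 was 12.9%. Mrgprd, a receptor that marks many of these neurons, fell to 29.4 ± 5.06 RPKM at day 3, against 46.2 ± 3.28 RPKM in naive ganglia (SD, n = 3 each; limma adjusted p = 0.00489). Scn11a, a sodium channel of nociceptors, fell to 91.9 ± 11.9 RPKM at day 3, against 139 ± 2.09 RPKM in naive ganglia (adjusted p = 0.00595). These calls of Mrgprd and Scn11a held with any single library left out. The summed level of the 10 was 274 to 354 RPKM at day 1, 242 to 304 RPKM at day 3 and 323 to 383 RPKM at day 7, against 401 to 446 RPKM in naive libraries, with no overlap on any day. The count at day 1 was 2 without any 1 of the 3 naive libraries, day 1 replicate 1 or 2, day 3 replicate 2 or day 7 replicate 3. Pan-neuronal markers had medians of -0.070, -0.022 and -0.13 at days 1, 3 and 7 and summed to 973 to 1523 RPKM at day 1, 1078 to 1452 RPKM at day 3 and 798 to 1347 RPKM at day 7, against 1194 to 1575 RPKM in naive libraries. What part the neuronal markers have in the values of P2rx3 and P2ry1 was not tested.

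**Figure D4:**
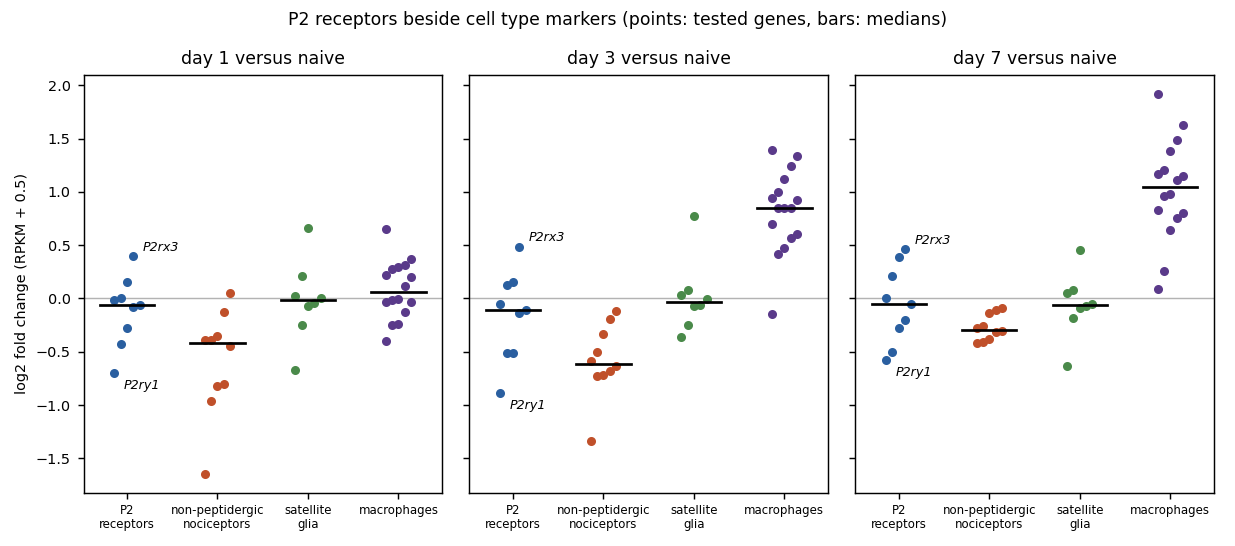
Log2 fold change of RPKM + 0.5 against naive (vertical axes) at days 1, 3 and 7 for the 9 tested P2 receptors and for the tested markers of non-peptidergic nociceptors, satellite glia and macrophages; points are genes and bars medians. At day 3 the medians are -0.11, -0.61, -0.034 and 0.85, with P2rx3 at 0.49 above and P2ry1 at -0.89 below the other receptors.

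The genes whose course was closest to that of P2ry1, by the root mean square difference of centred log2 values over the 12 libraries, were Etv1 (0.082), Fam126b (0.0867) and Slitrk4 (0.0985). Etv1 encodes a transcription factor of sensory neurons, among them proprioceptors, and Slitrk4 a synaptic adhesion protein. Etv1 averaged 47.9 ± 6.16 RPKM at day 1, 44.5 ± 0.971 RPKM at day 3 and 53.4 ± 10.1 RPKM at day 7, against 79.6 ± 3.64 RPKM in naive ganglia (SD, n = 3 each). Fam126b averaged 23.8 ± 4.41, 21.4 ± 0.649 and 25.1 ± 4.85 RPKM at days 1, 3 and 7, against 36.9 ± 2.44 RPKM in naive ganglia. Slitrk4 averaged 15.9 ± 2.25, 16.5 ± 0.891 and 19.4 ± 1.73 RPKM at days 1, 3 and 7, against 27.4 ± 1.36 RPKM in naive ganglia. These 3 were picked for likeness to P2ry1, so their fold changes are given as a description only.

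Among genes that supply, degrade or transport the ligands, those that passed the test belonged to nucleotide hydrolysis and adenosine turnover. Of all genes tested, 3.43%, 5.67% and 2.92% passed at days 1, 3 and 7, and 12.9% had an unadjusted p under 0.05 at day 7. Of 12 genes of nucleotide hydrolysis and adenosine turnover, 10 were tested, of which 1 was higher and 1 lower at day 1, 1 higher and 1 lower at day 3, and 0 passed at day 7 in limma (3 at an unadjusted p under 0.05, 0 with voom). Nt5e, the ecto-5'-nucleotidase CD73 that turns AMP into adenosine, rose to 24.0 ± 1.02 RPKM at day 1, against 14.6 ± 1.15 RPKM in naive ganglia (log2 fold change 0.71, limma adjusted p = 0.00185). Acpp, the prostatic acid phosphatase that does the same on nociceptors, fell to 65.4 ± 8.01 RPKM at day 3, against 107 ± 7.39 RPKM in naive ganglia (log2 fold change -0.73, adjusted p = 0.00115). These 2 calls held with any single library left out. The remaining 2, Nt5e higher at day 3 (0.41, adjusted p = 0.043) and Acpp lower at day 1 (-0.45, adjusted p = 0.0412), were lost in 8 and 9 of 12 such fits. For Nt5e the 8 were those without any naive or day 3 library or day 1 replicate 1 or 2, with an adjusted p of up to 0.149. For Acpp the 9 were those without any naive or day 1 library, day 3 replicate 2 or 3, or day 7 replicate 2, with an adjusted p of up to 0.186.

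Of 12 genes of nucleotide release and nucleoside transport, 8 were tested and 0 passed on any day in limma, beside the shares of all genes given above. At an unadjusted p under 0.05 these were 2 at day 1, 4 at day 3 and 1 at day 7, and voom called 1 at day 1 and 0 later. Panx1, the pannexin channel through which cells release ATP, stood at 11.5 ± 1.60 RPKM at day 1, 12.98 ± 3.34 RPKM at day 3 and 11.4 ± 3.21 RPKM at day 7, against 9.25 ± 1.89 RPKM in naive ganglia. Of 6 inflammasome partners of P2X7, 4 were tested and 0 passed in limma or with voom (1 at an unadjusted p under 0.05 at day 7). Of 4 adenosine receptors, 2 were tested and 0 passed in limma or with voom (1 at an unadjusted p under 0.05 at day 7). Adora1 stood at 9.76 ± 0.518, 7.78 ± 0.550 and 8.03 ± 0.947 RPKM at days 1, 3 and 7, against 9.49 ± 0.694 RPKM in naive ganglia. Of the 5 P2 receptors outside the 10, P2ry6 and P2ry13 were tested. They did not pass in limma, with voom or in any other setting (0 at an unadjusted p under 0.05 at day 7). P2ry6, a receptor for UDP on macrophages, stood at 1.33 ± 0.137 RPKM at day 3, against 0.631 ± 0.309 RPKM in naive ganglia (log2 fold change 0.72).

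Of 7 genes known to regulate transcription of P2 receptors or to act upstream of it, 4 were tested, of which 1 was higher on each day and 1 was lower at day 3. Over all 14195 genes tested, 3.43%, 5.67% and 2.92% passed at days 1, 3 and 7 in limma. All 4 had an unadjusted p under 0.05 at days 1 and 3. The share of all genes at that level is not given here for these days, so this count has nothing beside it. Gfra1, a GDNF receptor subunit, rose to 50.6 ± 4.45 RPKM at day 1, 62.1 ± 4.30 RPKM at day 3 and 51.6 ± 3.78 RPKM at day 7, against 25.4 ± 2.34 RPKM in naive ganglia (SD, n = 3 each). Its log2 fold changes were 0.99, 1.25 and 0.98 (limma adjusted p = 0.000325, 2.29e-05 and 0.000274), and these calls held with any single library left out. Ret, the signalling partner of Gfra1, stood at 113 ± 4.52, 111 ± 5.43 and 102 ± 4.84 RPKM at days 1, 3 and 7, against 86.7 ± 1.05 RPKM in naive ganglia, and did not pass. Runx1, the transcription factor of the non-peptidergic lineage, stood at 36.8 ± 1.66, 37.6 ± 0.473 and 41.0 ± 3.95 RPKM at days 1, 3 and 7, against 47.8 ± 2.07 RPKM in naive ganglia, and did not pass. Gfra2, the neurturin receptor subunit of the same lineage, was lower at day 3 at 49.2 ± 5.06 RPKM, against 68.8 ± 11.0 RPKM in naive ganglia, with an adjusted p of 0.04995 that exceeded 0.05 in 9 of 12 fits with 1 library left out. These were the fits without any naive or day 3 library, day 1 replicate 1 or 2, or day 7 replicate 2, with an adjusted p of up to 0.167.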

How the data were processed

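RNA-seq of mouse dorsal root ganglia gave 1 deposited table of gene symbols and values per library, and the titles give each library its group and number. Total RNA was isolated with Trizol and columns, DNase-treated, amplified with a low-input kit (Nugen Ovation) and made into TruSeq Nano libraries, per the labels' protocols. No molecular identifiers are named, so reads are not independent molecules and intervals cover counting error only. Per the submitters' processing notes, the tools were STAR, HTSeq, limma, edgeR and bcl2fastq 2.17, with mm10, and no role or order is stated. Annotation, counting options and strandedness: not given in the sources used here.

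Values were taken to be RPKM, made by the authors before they deposited the tables. No unit is written in the files, and this was inferred from steps between values that gave whole reads, within a tolerance of 0.05 reads, for 21561 of the 21597 genes above 0 in any library (99.8%). Libraries were then scaled by trimmed means of log ratios without weights, with 30% of log ratios and 5% of levels trimmed at each end. The expression filter asked for 1 RPKM or more in 3 libraries or more and passed 14195 genes. Values were taken as log2(RPKM + 0.5), so fold changes understate those of low genes. A single limma 3.58.1 model in R 4.3.3 covered 4 group means over 12 libraries, with a variance trend and robust moderation (8 residual degrees of freedom). Two-sided p-values were adjusted over all 14195 genes by the Benjamini-Hochberg method and called under 0.05, and the script was tested on simulated data. An exact permutation test of 3 against 3 libraries cannot go below p = 0.1, so none was made.

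The 10 receptors and the gene and marker lists were chosen with earlier results of these data known. Named were all 10 receptors, Atf3, up to 4 called genes per list and comparison by smallest p, genes of the lists given only by value and chosen after their values were seen (C1qa, C1qb, Panx1, Adora1, P2ry6, P2ry13, Ret, Runx1), and the 3 genes nearest to each receptor that passed over all 4 groups, with an average log2 value above 2 and predicted genes left out. One gene that this rule names is not reported here. The calls in other lists stand beside 3.43%, 5.67% and 2.92% of all genes at days 1, 3 and 7. Of 6 peptidergic nociceptor markers Adcyap1 was higher on all 3 days. Of 8 large myelinated neuron markers 0 were higher and 1, 2 and 1 were lower at days 1, 3 and 7. Of 10 pan-neuronal markers Elavl3 was higher at days 1 and 3. Of 10 Schwann cell markers Pmp2 was lower at day 1, of 6 fibroblast markers Col3a1 was lower at day 1, and of 2 tested platelet markers Gp1bb was higher at days 1 and 3. In limma and on all 3 days 0 passed among 6 endothelial, 4 mural, 3 neutrophil, 2 mast cell, 2 muscle and 1 central glia markers tested (at most 1 in a list at an unadjusted p under 0.05, and with voom 1 endothelial marker at day 1), and none of 8 lymphocyte markers reached the filter. Alternatives changed the pseudocount (0.1 or 1), filter, scaling, groups fitted, library weights, model (voom), replicate block and libraries included.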

Additional observations from a re-analysis of the deposited data

How the results depend on the processing

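The 24 other settings comprised 12 that left out 1 library each. The number of receptors passing at day 1 was 1; it was 0 without an expression filter, with the replicate number as a block and without the 2 libraries richest in muscle transcripts, 2 with array weights, and between 0 and 1 when single libraries were left out. At day 3 it was 2, against 1 without scaling, with the block and without the 2 muscle-rich libraries, and 1 to 2 with 1 library left out. At day 7 it was 0, against 1 with a filter at 5 RPKM, 2 with array weights, 2 with voom, 2 without naive replicate 1 and day 7 replicate 1 (the pair farthest apart on the second principal component, chosen after seeing the data), and 0 to 2 with 1 library left out. Over all 4 groups it was 1, against 0 without a filter or without the muscle-rich pair, 2 with array weights or voom, and between 0 and 2 when single libraries were left out. The calls moved were those of P2ry1 and P2rx3 in all these cases, and the cause was not tested. With the block, the limma adjusted p was 0.0624 for P2ry1 at day 1 and 0.0549 for P2rx3 at day 3. Same-numbered libraries did not deviate together (r of deviations from -0.340 to 0.234 over 18 pairs of libraries, best with the own number in 11 of 36 checks). The titles do not say what the number stands for. With 3 libraries a group, this check cannot settle whether same-numbered libraries were handled together.

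Signs turned among receptors that never passed. P2rx4 at day 7 was 0.085 with array weights and 0.079 without the pair apart on the second component. P2rx7 at day 1 was -0.00373 without scaling and -0.00244 with voom. P2ry2 at day 1 was 0.13 without the muscle-rich pair and 0.13 without the pair apart on the second component. P2ry14 at day 7 was -0.00379 without a filter, -0.00752 with median-of-ratios scaling, -0.00759 with the 2 groups alone, -0.14 with array weights, -0.000859 with voom, -0.11 without the muscle-rich pair and -0.20 without the pair apart on the second component. With 1 library left out, log2 fold changes ran from -0.19 to 0.073 for P2rx4 at day 7, -0.090 to 0.52 for P2rx5 at day 1, -0.31 to 0.018 for P2rx5 at day 3, -0.089 to 0.10 for P2rx7 at day 1, -0.14 to 0.13 for P2ry2 at day 1 and -0.27 to 0.26 for P2ry12 at day 3. For P2ry14 they ran from -0.24 to 0.061 at day 1, -0.27 to 0.029 at day 3 and -0.16 to 0.14 at day 7. Counts of list genes passing ran, over the other settings, from 2 to 8 at day 1 and 0 to 2 at day 7 for non-peptidergic markers (4 and 0), 3 to 11 at day 3 and 3 to 11 at day 7 for macrophage markers (6 and 7), and 1 to 4 at day 1 and 1 to 3 at day 3 for nucleotide hydrolysis (2 and 2), with the numbers in brackets those of the report. Over all genes, 487, 805 and 415 passed at days 1, 3 and 7, and 218 to 1844, 449 to 1954 and 166 to 831 in the other settings. Low read numbers limit P2rx2, P2rx5 and P2ry12, whose lowest libraries held 9, 32 and 53 reads.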
